A study of Ciona robusta with 15 samples.

Results

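The 75 transcripts described here come from Ciona robusta, a solitary sea squirt. They mostly had low read levels in amputated oral siphons and were counted more often in every pool of non-regenerating siphons than in any amputated pool. They were chosen by their values: in CPM (read counts scaled to a common library total and then by the trimmed mean of M-values, TMM), the lowest of the 3 non-regenerating libraries had to be at least 2 times the highest of the 12 libraries from amputated siphons, and the mean of the non-regenerating libraries had to lie from 5 to under 100 CPM. Of the 17745 transcripts in the table, 9124 lay in that range of levels and 75 of these met the ratio, so no limit on their number came into play. The difference between amputated and non-regenerating siphons is therefore a description of the choice and was not tested.

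The animals were wild type siblings of about 6 months, raised from mixed gametes of one pair of adults, and were anaesthetised in MS222 before the cut. Each library held the RNA of 5 siphon samples pooled, selected for polyadenylated RNA. The 5 groups of 3 libraries were siphons taken immediately after amputation (D0), 1 day (D1), 3 days (D3) and 8 days (D8) after it, and non-regenerating siphons (NR). Cut siphons were frozen at once, per the labels, which give the number of animals as about 75. The labels do not say how NR differed from D0 in handling, whether pools shared animals, or which animals shared a bucket. P-values therefore measure the spread between these pools, and a library carries the average of its pool.

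The oral siphon is the muscular tube through which a tunicate draws seawater into its pharynx. It is built of epidermis covered by the tunic, bands of circular and longitudinal muscle, nerves, blood cells and pigmented sensory organs at the rim. Ciona regrows the distal part of this tube after amputation, and work in this genus has traced dividing progenitor cells to the branchial sac, from which they move to the wound. The deposited identifiers are Ensembl transcript numbers, and 0 of the 17745 could be paired with a name in the table of 21486 RefSeq genes used here. The 75 transcripts are therefore described by identifier, with no gene role, position, sequence or cell type, and the labelled tissue was not checked against marker genes. In such bulk tissue, fewer cells of a type and less RNA per cell cannot be told apart.

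Library totals ran from 7039611 counts (D3 replicate 1) to 33413013 (NR replicate 2). The 20 most counted transcripts held 16.8% to 22.0% of the counts in the D libraries and 26.4% to 29.3% in the NR libraries. TMM factors were 0.940 to 1.21 in the D libraries and 0.665 to 0.797 in NR, and a factor under 1 raises CPM. With library totals alone the rule found 29 transcripts, of which 26 belong to the 75. Several libraries stood nearer, across all tested transcripts, to another group than to their own. D1 replicate 3 was nearest to D8 replicate 2 (Spearman's rho 0.975 across transcripts), D8 replicate 3 to D1 replicate 2 (0.980), D3 replicate 3 to D0 replicate 1 (0.977), D1 replicate 2 to D8 replicate 3 (0.980), D3 replicate 2 to D1 replicate 2 (0.975) and NR replicate 1 to D8 replicate 2 (0.923). The highest rho within the own group was 0.953 for D1 replicate 3, 0.942 for D8 replicate 3, 0.957 for D3 replicate 3 and 0.915 for NR replicate 1. For D1 replicate 2 (0.979) and D3 replicate 2 (0.974) it was nearly equal to that of the nearest library. Without D1 replicate 3 and D8 replicate 3 the rule found 90 transcripts, 74 of them among the 75. Without NR replicate 1 it found 143, with 68 of the 75, and without NR replicate 3 it found 132, with 72 of the 75.

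**Figure D1:**
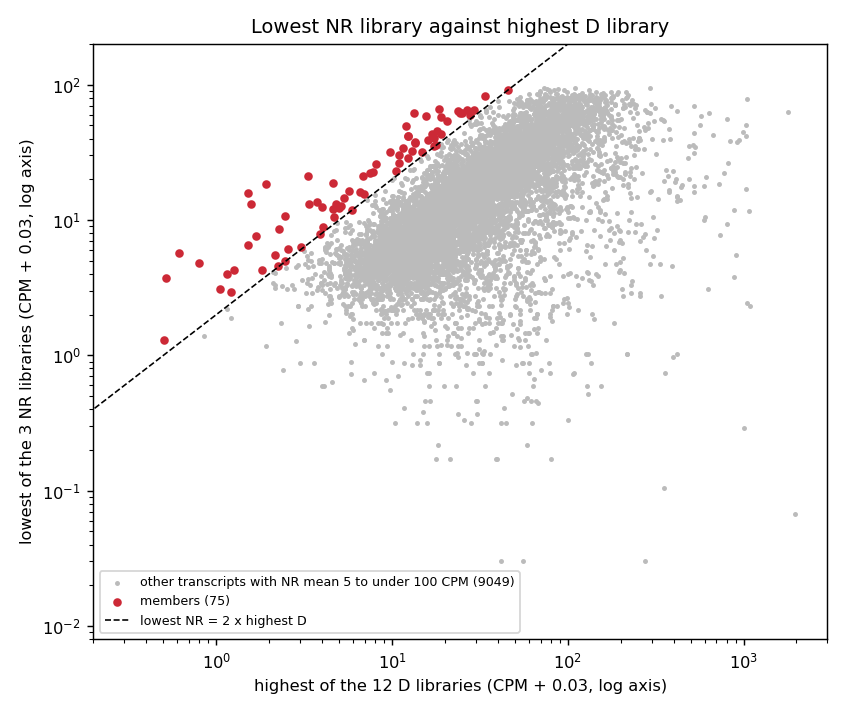
Lowest of the 3 NR libraries (y axis, CPM + 0.03, log scale) against the highest of the 12 D libraries (x axis, CPM + 0.03, log scale) for the 9124 transcripts with an NR mean from 5 to under 100 CPM. The 75 chosen transcripts (red) lie on or above the dashed line at a ratio of 2, and the other transcripts (grey) lie below it.

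All 75 passed the filter on low counts and were among the 15328 transcripts fitted. Their NR means had a median of 31.2 CPM, compared with 11.4 over all tested and 17.9 in the same range of NR means. Their means over the D libraries had a median of 3.80 CPM, compared with 12.6 over all tested. Over the 75, the ratio of the lowest NR to the highest D library had a median of 2.72 and ran from 2.01 to 10.7. It was at least 3 in 28 transcripts, at least 4 in 13 and at least 5 in 7. Fitted log2 fold changes had medians of -3.40 for D0 over NR, -2.67 for D1 over NR, -2.98 for D3 over NR and -2.69 for D8 over NR, where all tested transcripts had medians of -0.04, 0.03, 0.03 and 0.01. D0 thus lay farthest from NR in the median of these transcripts. Library totals alone, which moved the medians of all tested transcripts to 0.44, 0.66, 0.60 and 0.62, gave -2.90, -2.02, -2.38 and -2.05 for the 75.

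By their mean over the D libraries the 75 fell into 5 transcripts under 0.5 CPM, 24 from 0.5 to under 2 CPM and 46 at 2 CPM or more. Their median ratios were 6.25, 3.08 and 2.55. Such CPM are not corrected for transcript length, so they order reads and not molecules. Complete absence was rare: 9 of the 75 had 0 counts in some D library, and each of these 9 had 0 in D3 replicate 1, the shallowest, where a count of 0 allows up to 0.375 CPM. No NR library lacked reads of any of the 75. The counts behind a ratio were fewest for ENSCINT00000001756, whose ratio of 2.71 rests on 9 counts in NR replicate 3 and 8 in D8 replicate 2 (exact 95% counting interval 0.927 to 8.06).

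The 6 transcripts with the largest ratios had few reads in amputated siphons. ENSCINT00000033656 had a lowest value of 0, a median of 0.471 and a highest value of 1.48 CPM over the 12 D libraries, against 31.9, 15.9 and 23.3 CPM in the NR libraries. Its ratio was 10.7 (exact 95% counting interval 7.03 to 17.1). The 12 D libraries lay far below the 3 NR libraries at every stage, with log2 fold changes of -4.98 ± 0.747 for D0, -6.24 ± 0.811 for D1, -4.86 ± 0.757 for D3 and -5.00 ± 0.756 for D8 over NR (SE). ENSCINT00000005010 had a lowest value of 0, a median of 1.19 and a highest value of 1.90 CPM over the 12 D libraries, against 27.2, 18.4 and 38.7 CPM in the NR libraries. Its ratio was 9.72 (exact 95% counting interval 6.60 to 14.9), and no D stage stood apart, with D0 at 1.02 ± 0.298 CPM, D1 at 0.854 ± 0.358, D3 at 1.10 ± 0.985 and D8 at 1.24 ± 0.101 CPM (mean ± SD, n = 3 each). ENSCINT00000018172 had a lowest value of 0.0702, a median of 0.741 and a highest value of 1.54 CPM over the 12 D libraries, against 16.9, 13.2 and 19.9 CPM in the NR libraries. Its highest D library was D8 replicate 2, and its ratio was 8.57 (exact 95% counting interval 5.75 to 13.3).

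ENSCINT00000033762 had a lowest value of 0, a median of 0.238 and a highest value of 0.582 CPM over the 12 D libraries, against 5.72, 10.8 and 10.9 CPM in the NR libraries. The 12 D libraries held 55 reads of it together, and its ratio was 9.83 (exact 95% counting interval 5.34 to 19.8). ENSCINT00000030190 had a lowest value of 0, a median of 0.192 and a highest value of 0.485 CPM over the 12 D libraries, against 3.70, 6.76 and 9.38 CPM in the NR libraries. Each D library held 10 reads of it or fewer, and the ratio was 7.63 (exact 95% counting interval 3.84 to 16.8). ENSCINT00000025662 had a lowest value of 0.387, a median of 1.15 and a highest value of 3.31 CPM over the 12 D libraries, against 26.03, 28.8 and 21.2 CPM in the NR libraries. Here D1 replicate 3 alone exceeded 3 CPM among the D libraries, and the ratio was 6.41 (exact 95% counting interval 4.87 to 8.47). Without that library the next highest D value was 1.77 CPM.

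**Figure D2:**
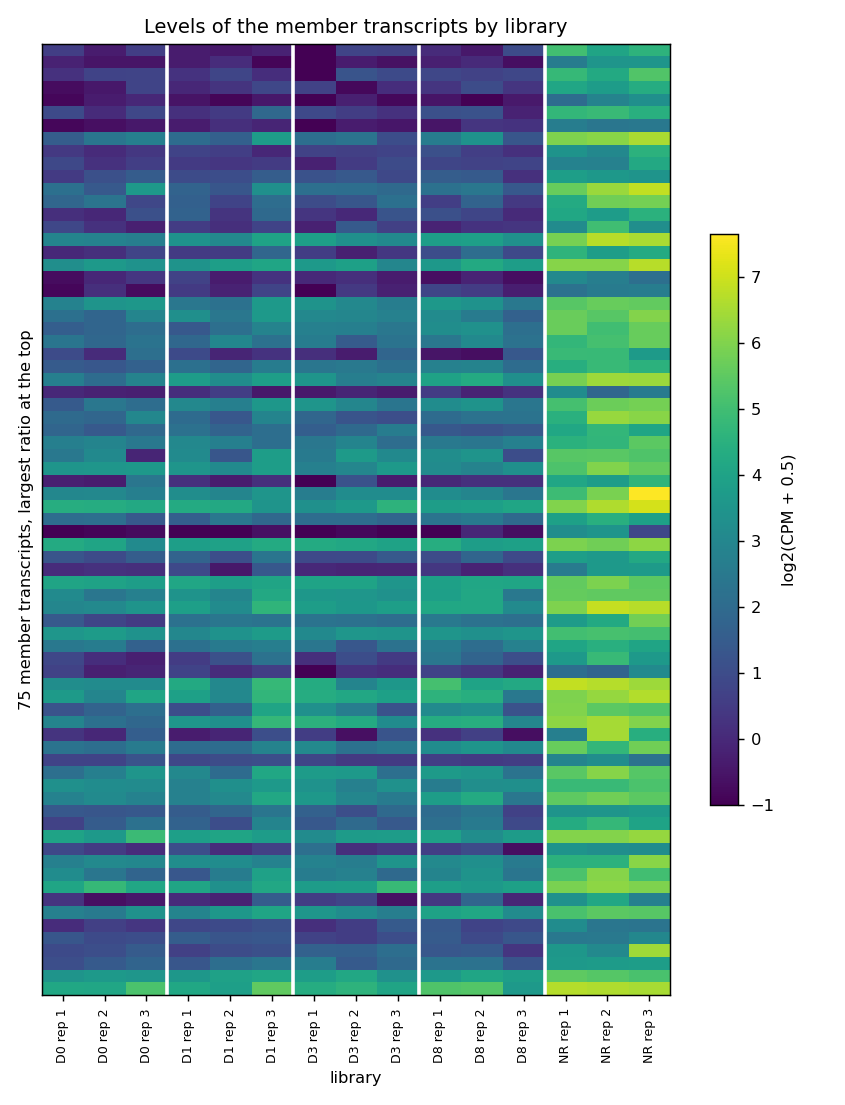
Levels of the 75 transcripts (rows, largest ratio at the top) in the 15 libraries (columns, D0, D1, D3, D8 and NR from left to right), as log2(CPM + 0.5). The 3 NR columns are brighter than the 12 D columns in each row, and D1 replicate 3, D8 replicate 1 and D8 replicate 2 are the brighter columns among the D libraries in many of the lower rows.

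At the upper end of the range, the transcripts were clearly present in amputated siphons and higher in NR. ENSCINT00000031510 had 8.83, 8.60 and 8.58 CPM at D0, 18.7, 7.71 and 27.3 at D1, 19.3, 6.88 and 11.4 at D3, 33.6, 15.7 and 18.1 at D8 and 114, 102 and 83.02 in NR. The D0 libraries were nearly equal, the later D libraries were scattered, and all lay below NR. Its log2 fold change over NR was -3.57 ± 0.471 for D0 and -2.18 ± 0.443 for D8 (SE). ENSCINT00000008998 had a lowest value of 9.63, a median of 17.3 and a highest value of 23.6 CPM over the 12 D libraries, against 64.4, 96.5 and 136 CPM in the NR libraries. Its D groups averaged 19.4 ± 1.04 CPM at D0, 15.9 ± 4.55 at D1, 15.1 ± 7.49 at D3 and 14.7 ± 1.65 at D8, so that D0 and D8 differed little beside NR. ENSCINT00000017152 had a lowest value of 9.51, a median of 15.4 and a highest value of 27.7 CPM over the 12 D libraries, against 59.4, 71.4 and 61.98 CPM in the NR libraries. Its highest D libraries were D0 replicate 2 and D3 replicate 3, unlike those of most of the 75.

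ENSCINT00000014265 had the highest mean CPM over the D libraries among the 75 and lay nearest to the threshold. It had 17.1, 16.7 and 35.8 CPM at D0, 17.4, 14.2 and 45.7 at D1, 20.1, 23.6 and 15.9 at D3, 37.5, 39.5 and 12.1 at D8 and 102, 98.1 and 91.8 in NR. Of its D libraries, D0 replicate 3, D1 replicate 3, D8 replicate 1 and D8 replicate 2 were above 35 CPM and the others under 24 CPM, so the spread within D0, D1 and D8 exceeded the differences between their means. Its ratio was 2.01 (exact 95% counting interval 1.82 to 2.22). The next inside the threshold was ENSCINT00000037170, at 2.02 (exact 95% counting interval 1.69 to 2.41). Just outside lay ENSCINT00000036634, with a ratio of 1.997 from a highest D library of 27.4 and a lowest NR library of 54.7 CPM, and ENSCINT00000004327, with 1.986 from 10.2 and 20.3 CPM. The counting intervals of the pair just inside span 2, and only 50 of the 75 had a counting interval wholly above 2. The border between members and other transcripts is therefore not sharp. The lowest NR mean inside was 5.05 CPM (ENSCINT00000012065), and the nearest transcript below the range that met the ratio had 4.63 CPM (ENSCINT00000030170). The highest NR mean inside was 99.7 CPM, and the nearest above the range with such a ratio had 109 CPM (ENSCINT00000025965).

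The 3 NR pools were not alike for all of the 75. The ratio of the highest to the lowest NR library had a median of 1.66 over the 75, compared with 1.68 over the transcripts in the same range of NR means and 1.85 over all tested, and it was at least 2 in 25 of the 75, at least 3 in 9 and at least 5 in 4. NR replicate 1 was the lowest pool for 32 of the 75 (42.7%; 31.6% of all tested), NR replicate 2 for 19 (25.3%; 28.2%) and NR replicate 3 for 24 (32%; 40.2%). The shares of the lowest pool are bound to the choice, since the lowest NR library entered the rule.

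The 4 transcripts with a ratio of at least 5 were uneven in different ways. ENSCINT00000027255 had a lowest value of 0.129, a median of 0.709 and a highest value of 2.52 CPM over the 12 D libraries, against 6.07, 88.3 and 21.04 CPM in the NR libraries. NR replicate 2 was thus 14.5 times NR replicate 1. ENSCINT00000035462 had a lowest value of 0.774, a median of 1.86 and a highest value of 3.86 CPM over the 12 D libraries, against 11.4, 7.84 and 85.6 CPM in the NR libraries. NR replicate 3 alone held the high value, and without it the NR pools were 11.4 and 7.84 CPM. ENSCINT00000001756 had 0 counts in 6 of the 12 D libraries and 18 counts in all of them, against 128, 282 and 9 counts in NR replicates 1, 2 and 3. In CPM these NR libraries were at 8.93, 10.6 and 1.28, so that replicate 3 alone was low. ENSCINT00000036380 had a lowest value of 4.71, a median of 7.58 and a highest value of 10.9 CPM over the 12 D libraries, against 30.01, 59.6 and 199.6 CPM in the NR libraries, so that its NR mean of 96.4 CPM rests on replicate 3.

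Other transcripts were nearly equal in the 3 NR pools. ENSCINT00000013903 had 8.38, 4.76 and 6.31 CPM at D0, 10.3, 7.08 and 17.9 at D1, 11.5, 11.2 and 9.79 at D3, 14.3, 17.8 and 4.97 at D8 and 47.7, 45.5 and 45.5 in NR. Its NR pools differed by 1.05 times while its D8 libraries differed more, with D8 replicate 3 below the other D8 libraries. ENSCINT00000001879 had a lowest value of 7.53, a median of 10.7 and a highest value of 12.9 CPM over the 12 D libraries, against 32.2, 34.9 and 33.1 CPM in the NR libraries. It was also steady among amputated siphons, at 11.4 ± 1.33 CPM at D0, 10.2 ± 2.67 at D1, 9.90 ± 1.67 at D3 and 10.4 ± 0.754 at D8 (SD, n = 3 each), and its log2 fold changes over NR were -1.60 ± 0.219 for D0, -1.76 ± 0.220 for D1, -1.79 ± 0.222 for D3 and -1.71 ± 0.220 for D8 (SE). The spread within each side was small beside the distance between amputated and non-regenerating siphons.

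Pooled over all groups, edgeR's estimate of the spread between pools of a group was higher for the 75 in the median, a difference that was not tested. This biological coefficient of variation had a median of 0.385, compared with 0.256 over the transcripts with NR means in the same range and 0.297 over all tested. That range was matched on NR means only. Its median over the D libraries was 18.6 CPM, against 3.80 for the 75. It was 0.488 in the 5 with D means under 0.5 CPM, 0.502 in the 24 from 0.5 to under 2 CPM and 0.342 in the 46 at 2 CPM or more.

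Summed over the 75, the level was 349, 350.4 and 405 CPM in the D0 libraries, 395, 347 and 635 in the D1 libraries, 438, 410.0 and 385 in the D3 libraries, 525, 542 and 335 in the D8 libraries, and 2317, 2851 and 3153 in the NR libraries. The D means were 368 ± 32.1 CPM at D0, 459 ± 155 at D1, 411 ± 26.4 at D3 and 467 ± 115 at D8, against 2774 ± 423 in NR (SD, n = 3 each), or 13.3%, 16.6%, 14.8% and 16.8% of the NR mean. As a share of all reads, without TMM scaling, the 75 held 0.0333% to 0.0769% of the D libraries and 0.179% to 0.227% of the NR libraries. The order of the D means does not exceed the spread within D1 and D8. D1 replicate 3 was the highest of the 12 D libraries and D8 replicate 3 the lowest, and D1 replicate 3 was nearest to a D8 library and D8 replicate 3 to a D1 library across all transcripts. The labels of all libraries were used as given, and whether the libraries numbered 3 of D1, D3 and D8 carry the right stage was not tested.

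**Figure D3:**
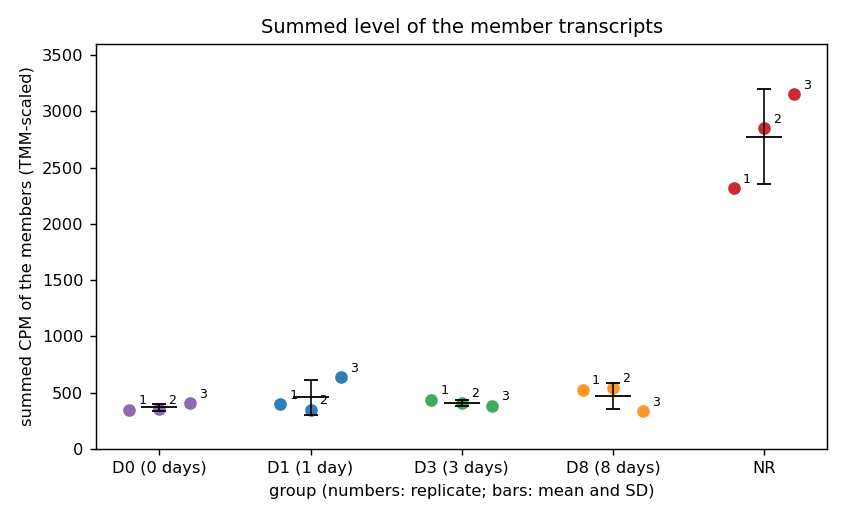
Summed CPM of the 75 transcripts (y axis, TMM-scaled, starting at 0) in each library, numbered by replicate, for D0, D1, D3, D8 and NR from left to right; black bars give the mean and SD of 3 libraries. The NR libraries lie between 2317 and 3153 CPM and the D libraries between 335 and 635 CPM.

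The comparisons among amputated siphons ask whether the 75 changed over the days after the cut. The contrasts do not compare any group with NR, but the NR libraries enter the filter, the scaling and the estimate of spread, and the rule bounds the highest D value. The 3 stages share the D0 libraries. Without the NR libraries the edgeR calls among the 75 were also 0 in each of the 4 comparisons. In edgeR's quasi-likelihood test with Benjamini-Hochberg adjustment over 15328 transcripts, 0 of the 75 passed an adjusted p of 0.05 at D1 over D0, where 0.0326% of all tested transcripts did, and limma voom and DESeq2 called 0 of the 75 too, with 0.0261% and 1.08% of all. At D3 over D0, edgeR called 0 of the 75 and 0% of all, and limma voom and DESeq2 called 0 of the 75, with 0% and 0.196% of all. At D8 over D0, edgeR called 0 of the 75 and 0% of all, limma voom 0 of the 75 and 0% of all, and DESeq2 5 of the 75, all higher (6.67% of the 75; 1.5% of all were called higher). For the mean of D1, D3 and D8 over D0, edgeR called 0 of the 75 and 0.0261% of all, limma voom 0 of the 75 and 0.0718% of all, and DESeq2 5 of the 75, all higher (1.98% of all were called higher).

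Below that threshold, more of the 75 were higher than lower after D0. At an unadjusted p under 0.05, 12 of the 75 (16%) were higher at D1 than at D0 and 0 lower, where 6.15% and 4.37% of all tested transcripts were. At D3, 6 (8%) were higher and 1 (1.33%) lower, where 4.97% and 1.83% of all were. At D8, 14 (18.7%) were higher and 0 lower, where 8.29% and 6.02% of all were, and for the mean of the later stages 12 (16%) were higher and 1 lower, where 8.32% and 6.52% of all were. The members' shares on the higher side thus exceeded those of all transcripts, by the least at D3. Counted by groups that did not overlap, the higher side at D1 was close to the share of all transcripts: 9 of the 75 (12%) at D1 lay wholly above D0 and 0 wholly below, where 11.6% and 11.5% of all did. At D3 these counts were 9 (12%) and 1 (1.33%), where 7.24% and 6.94% of all did, and at D8 they were 11 (14.7%) and 4 (5.33%), where 11.5% and 10.7% of all did. The libraries of D1, D3 and D8 together lay wholly above D0 in 4 of the 75 (5.33%) and wholly below in 0, where 2.21% and 1.84% of all did.

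Median log2 fold changes of the 75 were 0.38 for D1 over D0, 0.11 for D3 over D0 and 0.35 for D8 over D0, with 0.04, 0.02 and 0.02 over all tested transcripts. Without D1 replicate 3 the D1 median was 0.18, and without D8 replicate 3 the D8 median was 0.66, an alternative added after the values were seen. By the fitted fold change, D1 was above D0 in 57 of the 75, D3 in 44 and D8 in 52, where 54%, 52.2% and 51.7% of all tested transcripts were. Without D1 replicate 3, D1 was above D0 in 43 of the 75, and without D8 replicate 3, D8 was in 55. D0 had the lowest mean of the 4 stages in 36 of the 75 (48%; 35.6% of all tested), and D8 the highest in 28 (37.3%; 23.5%) and D1 in 21 (28%; 22.9%). These shares are descriptions, since the 75 were chosen on the same D0 libraries that all of these comparisons share.

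**Figure D4:**
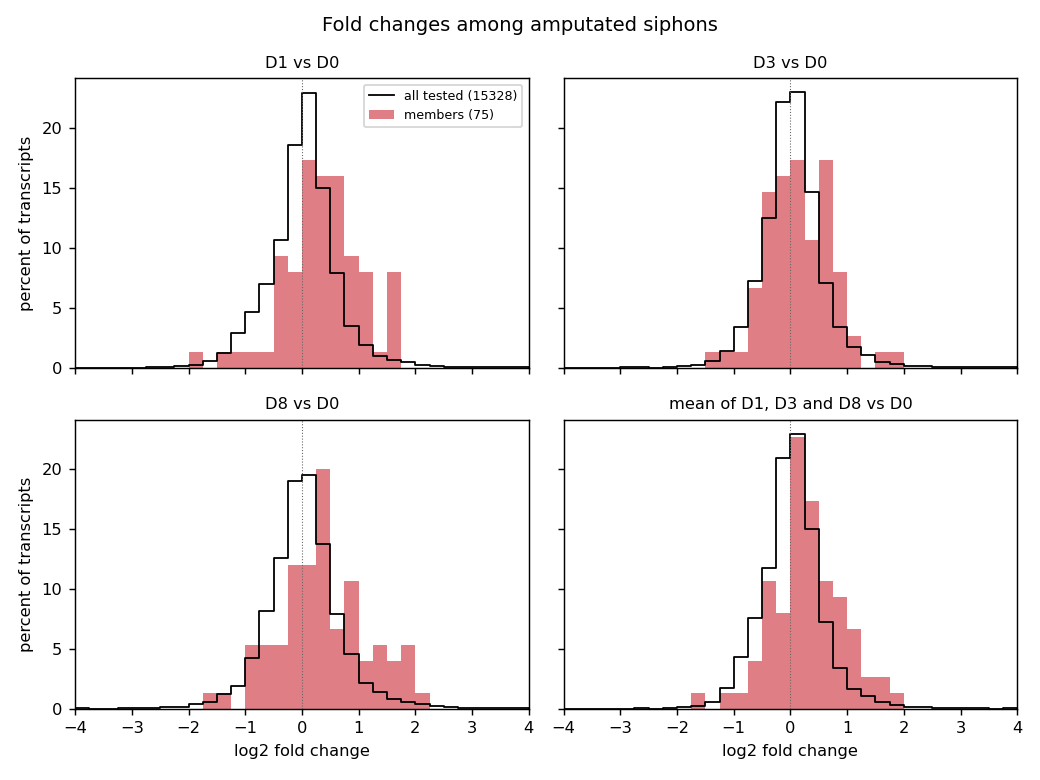
Distribution of log2 fold changes (x axis) in the 4 comparisons among amputated siphons, as percent of transcripts per 0.25-wide bin (y axis), for the 75 (red bars) and all 15328 tested (black line). The red bars lie to the right of the black line for D1 and D8 over D0, with medians of 0.38 and 0.35, and closest to it for D3, with a median of 0.11.

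The transcripts with the lowest p in these comparisons were ENSCINT00000010590, ENSCINT00000015400 and ENSCINT00000027422. ENSCINT00000010590 had 6.97, 4.08 and 3.20 CPM at D0, 11.03, 9.65 and 26.6 at D1, 22.8, 19.03 and 8.68 at D3, 20.04, 20.9 and 7.29 at D8 and 71.8, 89.3 and 64.5 in NR. All 9 later libraries lay above the 3 D0 libraries, and all 12 below NR. Its log2 fold changes were 1.74 ± 0.498 for D1 (adjusted p = 0.284 in edgeR), 1.83 ± 0.502 for D3 (0.729) and 1.77 ± 0.499 for D8 over D0 (0.195; SE). Over the alternatives its adjusted p for D3 over D0 ran from 0.00377 to 0.99956 and passed in 2 of 18. That of the mean of the later stages over D0, 0.156 with all libraries, ran from 0.00266 to 0.434 and passed in 4 of 24. At D8 over D0 it passed with DESeq2 and with each of the 3 sets of libraries numbered 3 removed. Within each later stage replicate 3 stood apart from the others, above them at D1 and below them at D3 and D8.

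ENSCINT00000015400 had 6.13, 3.69 and 6.74 CPM at D0, 13.2, 8.88 and 13.9 at D1, 10.8, 5.97 and 6.83 at D3, 15.2, 19.03 and 9.36 at D8 and 57.9, 82.7 and 81.3 in NR. The D1 and D8 libraries lay above D0, while the D3 libraries overlapped it. Its log2 fold changes were 1.13 ± 0.322 for D1 (adjusted p = 0.282 in edgeR), 0.50 ± 0.325 for D3 (0.784) and 1.41 ± 0.324 for D8 over D0 (0.168; SE). For D8 over D0 it passed in 5 of 18 alternatives, with adjusted p from 0.00992 to 0.641. ENSCINT00000027422 had 2.31, 2.04 and 2.72 CPM at D0, 4.09, 3.06 and 5.75 at D1, 4.75, 5.13 and 4.08 at D3, 6.38, 6.80 and 3.68 at D8 and 21.1, 27.7 and 23.2 in NR. Its 9 later libraries all lay above D0. Its log2 fold changes were 0.88 ± 0.298 for D1 (adjusted p = 0.342 in edgeR), 0.99 ± 0.303 for D3 (0.729) and 1.27 ± 0.300 for D8 over D0 (0.168; SE). That of the mean of the later stages was 1.04 ± 0.257 (adjusted p = 0.148 in edgeR, 0.0124 to 0.439 over 24 alternatives, of which 3 passed).

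**Figure D5:**
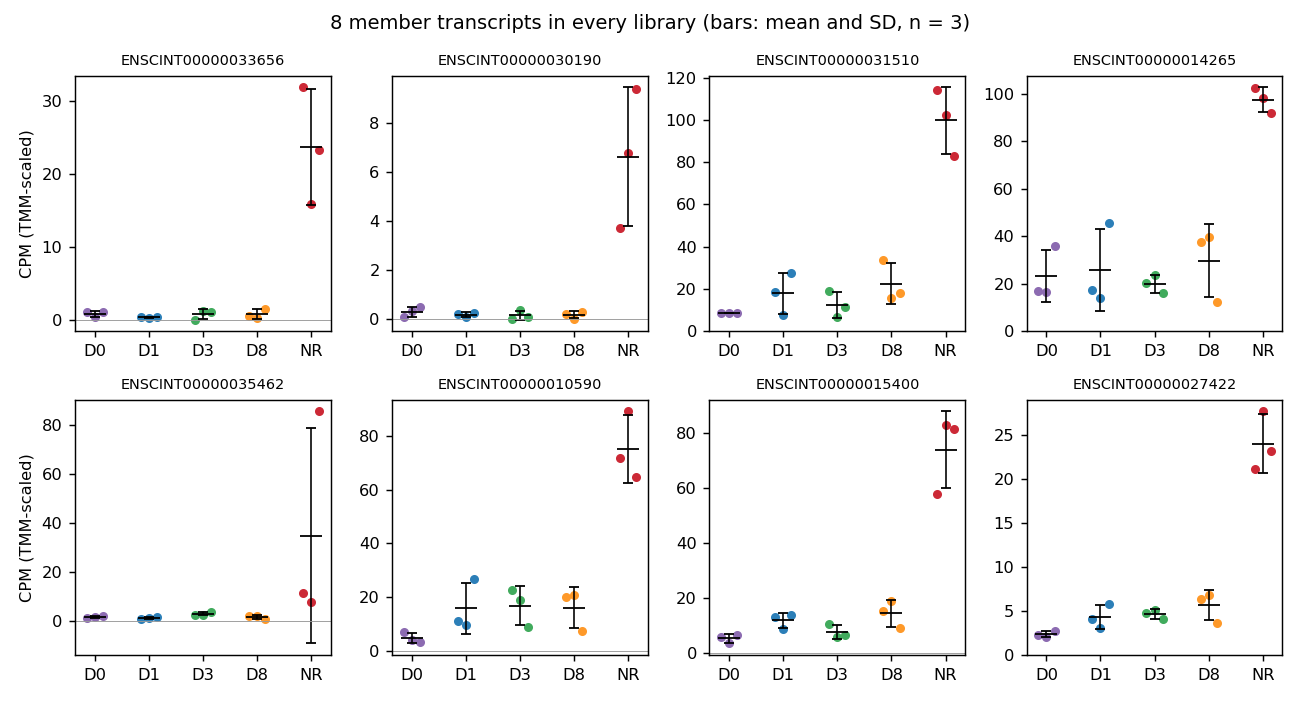
CPM (y axis, TMM-scaled) of 8 of the 75 transcripts in every library, for D0, D1, D3, D8 and NR from left to right; points are libraries, and bars give the mean and SD of 3. ENSCINT00000033656 and ENSCINT00000030190 lie near 0 in all D libraries, ENSCINT00000035462 shows a high value in NR replicate 3 alone (85.6 CPM), and the last 3 panels show transcripts whose D0 libraries lie at the low end of the D libraries.

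The number of calls changed with the libraries numbered 3. Without D8 replicate 3, edgeR called 2 of the 75 higher at D8 than at D0, where 0.397% of all were higher. Without replicate 3 of D1, D3 and D8 together it called 11 of the 75 (14.7%) higher and 0 lower, where 3.19% of all were called higher. Without D1 replicate 3 and D8 replicate 3, a pair chosen after the values were seen, it called 5 of the 75 (6.67%) higher at D8, where 1.38% of all were called higher, and 0 at D1 and D3.

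Among the D libraries, high values of the 75 gathered in a few pools, picked out with the values in view. D1 replicate 3 held the highest D value for 24 of the 75 (32%; 12.6% of all tested) and D8 replicate 2 for 15 (20%; 8.66%), and these 2 libraries were together the top pair in 17 of the 75 (22.7%; 4.95% of all tested). D0 replicate 1 held it for 0 of the 75 (7.5% of all tested). The transcripts that followed ENSCINT00000014265 most closely over the 12 D libraries were ENSCINT00000015926 (Spearman's rho 0.909), ENSCINT00000032943 (0.888), ENSCINT00000010086 (0.881) and ENSCINT00000006637 (0.874). The libraries are shared by all transcripts and differ in depth, and the median rho over all pairs of the 75 was 0.147. It was 0.210 over those with a D mean of 2 CPM or more, and 0 over pairs of every 10th tested transcript. These values are a description, with no test.

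ENSCINT00000010086 had 2.42, 4.81 and 6.16 CPM at D0, 3.62, 2.67 and 13.3 at D1, 3.88, 4.49 and 1.56 at D3, 5.70, 10.1 and 2.0 at D8 and 62.05, 69.1 and 92.4 in NR. It was highest in D1 replicate 3 and D8 replicate 2 among the D libraries, and its ratio was 4.65 (exact 95% counting interval 4.10 to 5.29). ENSCINT00000006637 had 4.11, 2.14 and 11.98 CPM at D0, 2.91, 1.99 and 9.49 at D1, 4.0, 3.86 and 3.41 at D3, 4.19, 4.85 and 2.13 at D8 and 49.6, 81.4 and 115 in NR. Its highest D value was in D0 replicate 3, not in a later stage. ENSCINT00000018113, also chosen after its values were seen, had 1.80, 2.87 and 3.93 CPM at D0, 1.54, 2.62 and 16.02 at D1, 9.63, 5.90 and 1.78 at D3, 8.37, 9.63 and 1.74 at D8 and 63.9, 44.1 and 39.1 in NR. Its values in D1 replicate 3, D3 replicate 1 and D8 replicates 1 and 2 were above 8 CPM and those of the remaining D libraries under 6 CPM, so its level differed within each later stage.

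The same ratio was met by 100 transcripts with NR means of 100 CPM or more and by 27 with NR means under 5 CPM, which makes 202 in all. The 75 and the 100 had like ratios, with medians of 2.72 and 2.70, and like spread among the NR pools, with medians of 1.66 and 1.52. The median log2 fold changes were 0.38 for the 75 and 0.26 for the 100 at D1 over D0, 0.11 and -0.03 at D3 over D0, and 0.35 and 0.31 at D8 over D0. These differences were not tested, because both lists were chosen from the same libraries. With D0, D1, D3 or D8 in the place of NR and the other 12 libraries as the other side, the same rule found 0 transcripts for each stage, against 75 for NR. The counts are not of equal weight, since each D stage is set against 9 other amputated libraries and NR against none of its own kind.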

How the data were processed

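Polyadenylated RNA was sequenced on an Ion Proton in 15 libraries, 3 per group. The authors deposited raw read counts per Ensembl transcript identifier. TopHat, Bowtie and HTSeq are listed, without versions, per the submitters' processing notes. Build, annotation release and strand setting were not given in the sources used here, so reads of overlapping or antisense transcripts may not be told apart. Counts were scaled by TMM and fitted in edgeR 4.0.16 (R 4.3.3) with quasi-likelihood over all 15 libraries after filterByExpr, which kept 15328 of 17745 transcripts. Contrasts among D0, D1, D3 and D8 were adjusted by Benjamini-Hochberg over all of these. Fold changes used a prior count of 0.125. Each SE given with a fold change was back-calculated as the absolute fold change divided by the square root of the quasi-likelihood F statistic. The fit was checked on simulated counts. DESeq2 1.42.0 and limma voom (limma 3.58.1), other scalings and filters, a replicate block and left-out libraries were alternatives.

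The 75 transcripts and all lists were chosen with earlier results of these data known. Transcripts were named by rule: the largest ratios, the highest NR means, the lowest p in each comparison, the extremes of NR spread, the highest D means and those at the thresholds. ENSCINT00000015926, ENSCINT00000032943, ENSCINT00000010086, ENSCINT00000006637 and ENSCINT00000018113 were named for likeness after their values were seen. Of 105 sets of transcripts with near-identical counts (214 transcripts), 0 of the 75 were in one. Total counts ran from 7039611 to 33413013 per library. Counting intervals are exact conditional binomial ones at 95% and, like the limit of 3 counts for a count of 0, cover counting error only. They treat the lowest NR and the highest D library of each transcript as fixed, not as picked by their values.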

Additional observations from a re-analysis of the deposited data

How the results depend on the processing

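The rule found 75 transcripts with TMM scaling and 29 with library totals alone, 172 with a ratio of 1.5, 28 with a ratio of 3, 448 with group means in place of extremes, 166 without all libraries numbered 3, and 74 to 143 when each library was left out in turn. Library totals alone gave median log2 fold changes over NR of -2.90 for D0, -2.02 for D1, -2.38 for D3 and -2.05 for D8, and mean summed CPM of 446 at D3 and 2053 in NR. The D3 median ran from -2.98 to -2.86 when NR libraries were left out. Median-of-ratios scaling put the spread of the NR pools at 1.72.

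For D1 over D0, the number of the 75 past the threshold was 0 in every alternative run. For D3 over D0 it was 1 without replicate 3 of D1, D3 and D8 (1.33%; 0.875% of all were called higher), and 3 without all libraries numbered 3 (4%; 2.45%). For D8 over D0 it was 5 with DESeq2 (6.67%; 1.5%), 11 without replicate 3 of D1, D3 and D8 (14.7%; 3.19%), 17 without all libraries numbered 3 (22.7%; 6.63%), 5 without D1 and D8 replicate 3 (6.67%; 1.38%), and 0 to 2 with each library left out. For the mean of the later stages it was 5 with DESeq2 (6.67%; 1.98%), 5 without replicate 3 of D1, D3 and D8 (6.67%; 2.18%), 7 without all libraries numbered 3 (9.33%; 4.25%), and 0 to 1 with each library left out (1 without D3 replicate 3, 1.33%; 0.852%). Each such call was on the higher side. The cause was not tested.

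Replicate numbers did not pair the libraries consistently. An r between same-numbered libraries of different groups, not the rho of levels given above, ran from -0.591 to 0.325, over 0.1 in 5 of 30. Both extremes lay among libraries numbered 3, D1 with D8 (-0.591) and D3 with D8 (0.325). By chi-square per degree of freedom, replicates 1 and 2 differed least within D0 (40.1), D1 (59.7), D3 (22.6) and D8 (21.7). Pairs with replicate 3, D0 included, stood at 103 to 194. In NR, replicates 2 and 3 differed least (137). The cause was not tested. With the replicate number as a block, 0 of the 75 passed in each of the 4 comparisons. Fold changes over D0 kept their direction in the alternatives run for ENSCINT00000010590 at D1, D3 and the mean of the later stages. The same held for ENSCINT00000015400 at D1 and D8, and for ENSCINT00000027422 at D3, D8 and the mean of the later stages. This was not tabulated for their remaining comparisons or for other named transcripts. Depth limits the lowest levels, since 0 counts in D3 replicate 1 allow 0.375 CPM.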
